A study of Oryza sativa Japonica Group with 6 samples.

Results

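Late embryogenesis abundant (LEA) proteins and dehydrins were followed in roots of rice (Oryza sativa ssp. japonica cv. TNG67) seedlings after 1 h without nitrogen. The group holds 8 genes, chosen by their symbol or synonym in the gene annotation, of 17905 genes tied to a probe set with a single symbol. They were picked with earlier results of the same −N against +N contrast known, so their values in that contrast are a description. The genes are RAB21, RAB16B, RAB16C, RAB16D, Dhn1, LEA19, EM and rab25, and they were measured by 11 probe sets of the 57194 that are not controls. Their identifiers in the annotation are LOC4350454 (RAB21), LOC4350453 (RAB16B), LOC4350452 (RAB16C), LOC4350451 (RAB16D), LOC4330265 (Dhn1), LOC4338499 (EM) and LOC4326935 (rab25), and LEA19 is listed under its symbol. All 8 had at least 1 probe set. RAB21 had 2, Dhn1 had 3 and the other 6 genes had 1 each. No probe set was tied to more than 1 member in the annotation. The names of 3 probe sets end in _s_at, which marks probes that can match several transcripts, and these belong to RAB21, Dhn1 and LEA19. The rab25 probe set ends in _a_at, which marks transcripts of a single gene. The RAB16 genes are related in sequence, and whether the transcript of one also binds the probes of another was not tested, so the share of each gene in these values is uncertain.

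Seedlings 10 days old had grown in hydroponic solution with ammonium nitrate (+N), and the −N seedlings spent 1 h in the same solution without it. Each group had 3 biological replicates, and the total root RNA of every replicate was read on 1 array of the GeneChip Rice Genome design, where a probe set is a group of short probes to a transcript and only 1 colour is scanned. The label of +N replicate 3 gives 0.5 h, the treatment label moves +N seedlings to fresh +N solution for 1 h while the Methods mention a transfer for −N alone, and the titles of −N replicates 1 and 2, but not 3, call them a reanalysis. All seedlings are of 1 cultivar, and nothing used here says whether replicates came from separate cultures, so each p reflects the variation among these 6 arrays, which may be technical. Values are deposited linear intensities, and a log2 ratio is the mean log2 intensity of −N minus that of +N.

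LEA proteins are small, very hydrophilic proteins that collect in the embryo as seeds dry and in vegetative tissue during drought, cold or salt stress, where they protect membranes and other proteins. Dehydrins are the group 2 LEA proteins and are marked by a lysine-rich segment. Many of these genes carry abscisic acid response elements, to which bZIP transcription factors bind once the hormone is perceived, and RAB stands for responsive to abscisic acid. RAB21 (also called RAB16A) and its relatives RAB16B, RAB16C and RAB16D encode dehydrins of one gene cluster. In the RefSeq gene table of assembly ASM3414082v1 RAB16D and RAB16C are direct neighbours, as are RAB16B and RAB21, and only 1 long non-coding RNA gene and 1 pseudogene lie between RAB16C and RAB16B. Dhn1 (also called LIP9 and Dip1) is another dehydrin gene, known from cold and drought treatment of rice. LEA19 (also called LEA3-1) encodes a group 3 LEA protein, and EM encodes a group 1 LEA protein best known from embryos. No role is given here for rab25.

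Members of the RAB16 cluster and LEA19 had higher geometric means in −N, by 2.46-fold to 7.40-fold, Dhn1 differed by 1.32-fold to 1.46-fold over its 3 probe sets, and EM and rab25 differed by 1.11-fold and 1.13-fold. The 7.40-fold was that of the RAB21 _s_at probe set, whose +N values were all under the array medians. None of the 11 probe sets passed an adjusted p of 0.05 in limma over all probe sets, with or without the replicate number as a block. The SE and p given for each gene are from the fit without the block, which leaves out the pairing by replicate number seen in the data. For each probe set of the RAB16 cluster and LEA19 the highest of the 6 arrays was −N replicate 3, and without it their log2 ratios were 0.59 to 2.15 in place of 1.30 to 2.89. In Dhn1 that array was not the highest. More cells that hold a transcript and more transcript per cell cannot be told apart in RNA of whole roots.

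**Figure D1:**
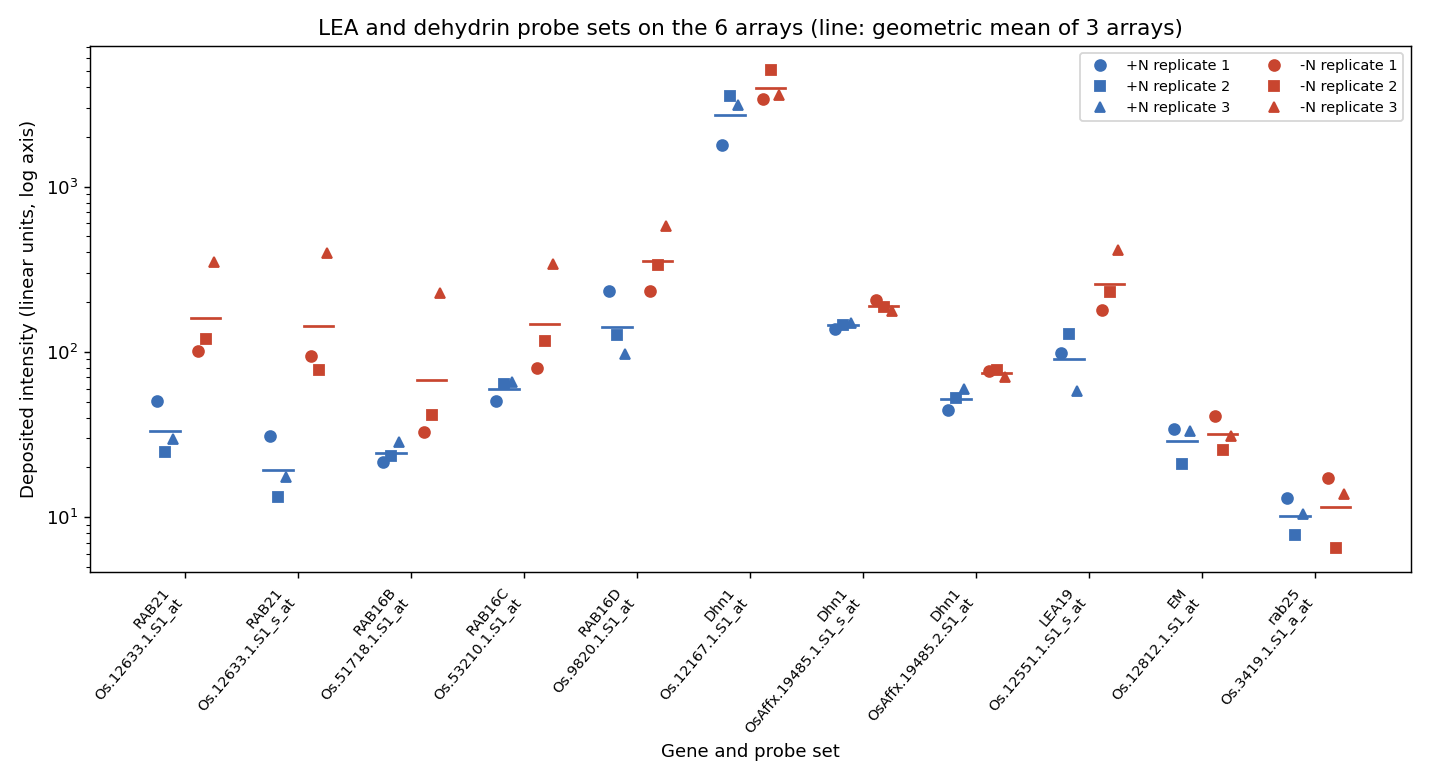
Deposited intensity (linear units on a log axis) of each of the 11 probe sets on the 6 arrays, with +N in blue, −N in red, a marker shape for each replicate number and a line at the geometric mean of 3 arrays. The −N replicate 3 triangles of RAB21, RAB16B, RAB16C, RAB16D and LEA19 lie above all other arrays of the same probe set, and those of Dhn1, EM and rab25 do not.

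RAB21 had the widest difference. On the probe set whose name ends in _at alone its intensities in +N were 50.5, 24.8 and 29.7 in replicates 1, 2 and 3, and in −N they were 101, 119.7 and 348. The groups did not overlap, and −N replicate 3 was 2.91-fold above the higher of the other −N arrays. Mean log2 intensity was 5.06 in +N with an SD of 0.53 and 7.33 in −N with an SD of 0.97, each over 3 arrays, and the log2 ratio was 2.27 ± 0.48 (SE, limma adjusted p = 0.561). The _s_at probe set read 31.0, 13.2 and 17.4 in +N and 94.7, 77.6 and 394 in −N. The groups did not overlap there either, and the log2 ratio was 2.89 ± 0.61 (SE, limma adjusted p = 0.561). Without −N replicate 3 the log2 ratios of the 2 probe sets were 1.72 and 2.15, so RAB21 stayed more than 2-fold apart on both. In +N the _s_at values were all under the array medians of 34.3 to 34.9, as were replicates 2 and 3 on the other probe set. No detection call was at hand. With a pseudocount of 16 added before log2, the ratios were 1.85 on the _at and 2.18 on the _s_at probe set. The log2 values of the 2 probe sets had a Pearson r of 0.994 over the 6 arrays, which share their libraries.

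RAB16B read 21.5, 23.4 and 28.4 in +N and 32.6, 41.2 and 228 in −N. The groups did not overlap, but −N replicates 1 and 2 were 1.51-fold and 1.76-fold above the +N array with their own number. Its log2 ratio was 1.47 ± 0.66 (SE, limma adjusted p = 1), and without −N replicate 3 it was 0.59. Among the members RAB16B had the largest gap between −N arrays, 5.53-fold between replicate 3 and the next. Its +N values and −N replicate 1 were under the medians of their arrays, and with a pseudocount of 16 its log2 ratio was 1.12. RAB16C, the dehydrin gene next to RAB16D, read 50.7, 63.95 and 65.3 in +N and 79.5, 116.4 and 341 in −N. These groups did not overlap either, and −N replicate 3 was 2.93-fold above the next −N array. The log2 ratio of RAB16C was 1.30 ± 0.49 (SE, limma adjusted p = 1), and 0.69 without −N replicate 3.

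RAB16D differed from its neighbours in +N replicate 1. Its intensities were 234.9, 127 and 96.6 in +N and 232.6, 334 and 582 in −N. The −N arrays of replicates 2 and 3 lay above all +N arrays, whereas the 2 arrays of replicate 1 were level, so the groups overlapped. Its means were 152.9 ± 72.6 (SD, n = 3) and 383 ± 179.5 (SD, n = 3), with a log2 ratio of 1.32 ± 0.42 (SE, limma adjusted p = 1). Without −N replicate 3 this was 0.97, just under 2-fold. RAB21 shared part of this pattern, since its highest +N array was also replicate 1 on both probe sets.

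LEA19, outside the cluster, resembled it. Its intensities were 97.8, 128.5 and 58.1 in +N and 179, 230 and 414 in −N. All −N arrays were higher than all +N arrays, and −N replicate 3 was again the highest, by 1.80-fold over replicate 2. The means were 94.8 ± 35.3 (SD, n = 3) and 274 ± 123.7 (SD, n = 3), and the log2 ratio of 1.51 ± 0.39 (SE, limma adjusted p = 0.735) became 1.17 without that array. In LEA19 the lowest +N array was replicate 3, so its replicate 3 pair was spread from both ends. Over the 6 arrays, the 15 pairs among the 6 probe sets of the RAB16 cluster and LEA19 had Pearson r between 0.782 and 0.994. These are a description, since all points come from the same 6 libraries and the treatment difference enters each r.

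Dhn1 had small differences with little spread on 2 of its 3 probe sets. On the _s_at probe set it read 138.5, 144.6 and 150.5 in +N and 206, 187.5 and 177.7 in −N. The groups did not overlap, and the log2 ratio was 0.40 ± 0.17 (SE, limma adjusted p = 1). On the _at probe set of the OsAffx series it read 44.6, 52.6 and 59.3 in +N and 76.8, 77.7 and 69.99 in −N, a log2 ratio of 0.53 ± 0.19 (SE, limma adjusted p = 1), again without overlap. On the _at probe set of the Os series it read 1797, 3547 and 3136 in +N and 3386, 5108 and 3607 in −N. Here +N replicate 2 exceeded −N replicate 1 and the groups overlapped, with a log2 ratio of 0.55 ± 0.30 (SE, limma adjusted p = 1). All 3 probe sets thus lay between 0.40 and 0.55, and −N was above +N in every pair on each. Their log2 values were less alike from array to array, with Pearson r of 0.626 to 0.947 among the 3 over all arrays.

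EM and rab25 did not separate the treatments. EM read 34.3, 20.9 and 33.2 in +N and 41.1, 25.4 and 30.75 in −N, a log2 ratio of 0.15 ± 0.27 (SE, limma adjusted p = 1). The gene rab25 read 13.1, 7.76 and 10.4 in +N and 17.3, 6.44 and 13.7 in −N, a log2 ratio of 0.18 ± 0.38 (SE, limma adjusted p = 1). For both genes the groups overlapped and 2 of the 3 pairs were higher in −N. Their mean log2 values were under the median of all probe sets, and no detection call was at hand, so whether either transcript was above background is unknown. OsVP1, a transcription factor known to act on the EM promoter in rice embryos, read between 9.66 and 13.1 on the 6 arrays, with a log2 ratio of 0.00.

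The pairs ran differently among the members. Within pairs of equal replicate number the RAB16 cluster and LEA19 had log2 differences (−N minus +N) of −0.01 to 1.61 in replicate 1, 0.82 to 2.55 in replicate 2 and 2.38 to 4.50 in replicate 3. For RAB21 on the _at probe set the 3 differences were 1.00, 2.27 and 3.55. For LEA19 they were 0.87, 0.84 and 2.83, so replicates 1 and 2 were alike and replicate 3 was apart. Dhn1 ran the other way, with 0.91, 0.53 and 0.20 on the _at probe set of the Os series, 0.57, 0.37 and 0.24 on the _s_at probe set, and 0.79, 0.56 and 0.24 on the _at probe set of the OsAffx series. Replicate 3 was thus the widest pair in all 6 probe sets of the RAB16 cluster and LEA19 and the narrowest in all 3 of Dhn1. EM, with 0.26, 0.28 and −0.11, also had its narrowest pair in replicate 3, but with −N below +N there. The gene rab25, with 0.41, −0.27 and 0.40, followed neither. A test of the difference between pairs was not possible with 1 array of each treatment per number. The medians over the 11 probe sets were 0.65, 0.82 and 2.38 in replicates 1, 2 and 3, against 0.03, 0.00 and −0.03 over all probe sets.

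**Figure D2:**
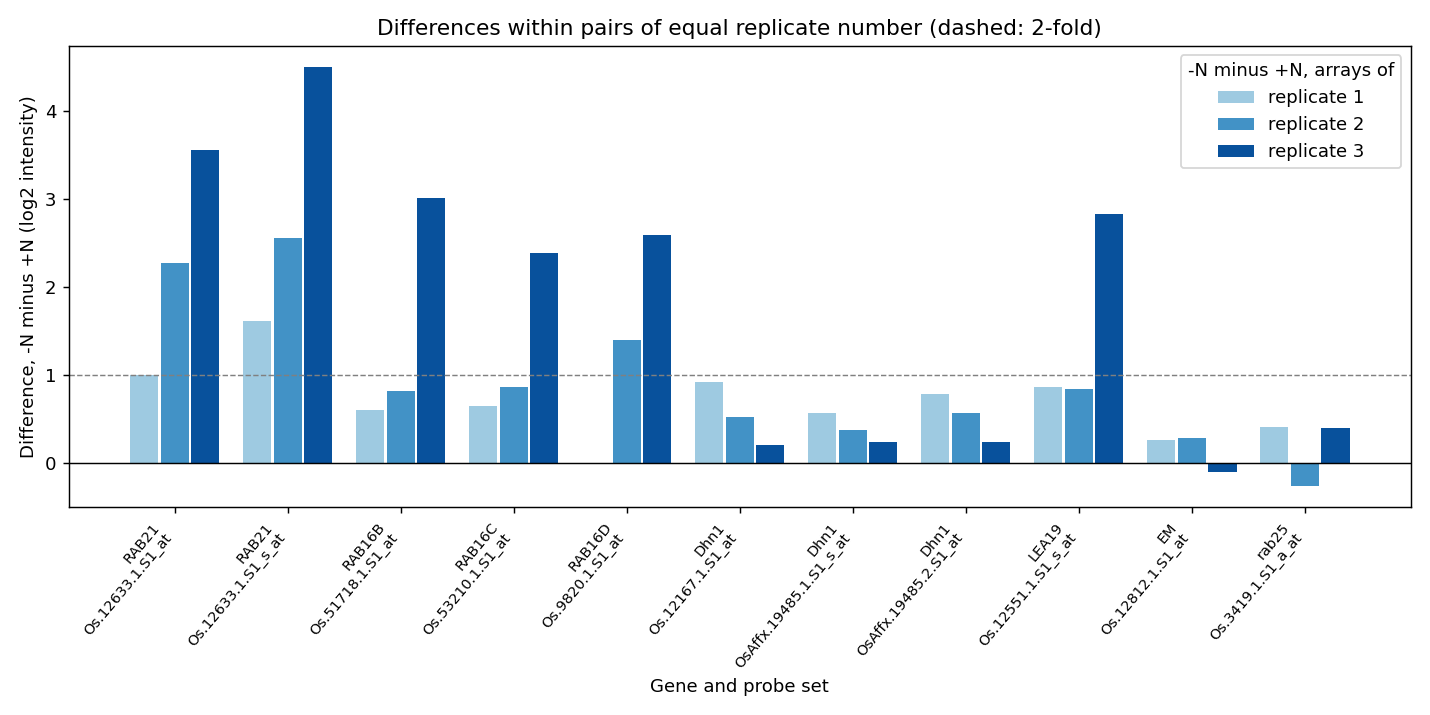
Difference of log2 intensity, −N minus +N, within each pair of arrays of equal replicate number, with 1 bar per pair for each of the 11 probe sets and a dashed line at 2-fold. The replicate 3 bars reach 2.38 to 4.50 in the RAB16 cluster and LEA19 and stay at 0.20 to 0.24 in Dhn1.

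As counts, 6 of the 11 member probe sets, of 5 genes, were at least 2-fold higher in −N by geometric means, and 0.365% of all probe sets were. These 6 are the probe sets of the RAB16 cluster and LEA19, where the smallest was RAB16C at 2.46-fold, and the next member was Dhn1 at 1.46-fold. In 7 of the 11 the lowest −N array was above the highest +N array, which held for 2.53% of all probe sets. In 8 of the 11 −N was above +N in all 3 pairs, which held for 16.5%. In limma without a block 0 of the 11 were higher at an adjusted p under 0.05, as in 0% of all probe sets, and 7 were at an unadjusted p under 0.05, as in 1.29%. With the replicate number as a block these counts were 0 and 9 of the 11, against 0.332% and 7.07% of all probe sets, and the lowest adjusted p of a member was 0.0518, that of RAB21 on the _s_at probe set. The SE and p given for each gene are from limma without the block, as planned, and leave out the pairing by replicate number seen in the data. With the block the limma adjusted p was 0.0518 to 0.229 in the RAB16 cluster and LEA19 and 0.151 to 0.204 in Dhn1. For EM and rab25 it was 0.73 and 0.74. The change in SE differed among members. For RAB16C the SE was 0.31 with the block and 0.49 without, and for RAB16D it was 0.41 with and 0.42 without. The choice of members with this contrast in view fixes part of each count, and nothing is read from them. All 11 log2 ratios were positive, from 0.15 to 2.89 with a median of 1.30, and 49.3% of all probe sets were positive with a median of −0.0028.

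The count of member probe sets at least 2-fold higher moved with 1 array, −N replicate 3. Without it 3 probe sets, 2 of RAB21 and 1 of LEA19, were at least 2-fold higher in place of 6, and the median log2 ratio was 0.62. Without any other single array the count stayed at 6 and the median lay between 1.04 and 1.63. Within −N, replicate 3 was at least 2-fold above both other arrays on 4 of the 11 probe sets, of RAB21, RAB16B and RAB16C, and on 0.476% of all probe sets. This measure was chosen after the values had been seen. The upper quartile of the array was 177, against 130.5 to 179.5 on the other 5, but its median intensity was the lowest, 33.3 against 34.3 to 35.2. Of its ratios of 3′ to 5′ signal, that of cyclophilin, 1.53, was under the 1.73 to 2.08 of the other 5. Its actin ratio, 3.03, lay within the 2.76 to 3.25 of the +N arrays. Its glyceraldehyde-3-phosphate dehydrogenase ratio, 4.9998, was above the 4.62 to 4.82 of the +N arrays and −N replicate 1. Only −N replicate 2 was higher for that gene, at 8.61, and its actin ratio, 3.87, was also the highest of the 6 arrays. The part of these array differences in the members' values was not tested.

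**Figure D3:**
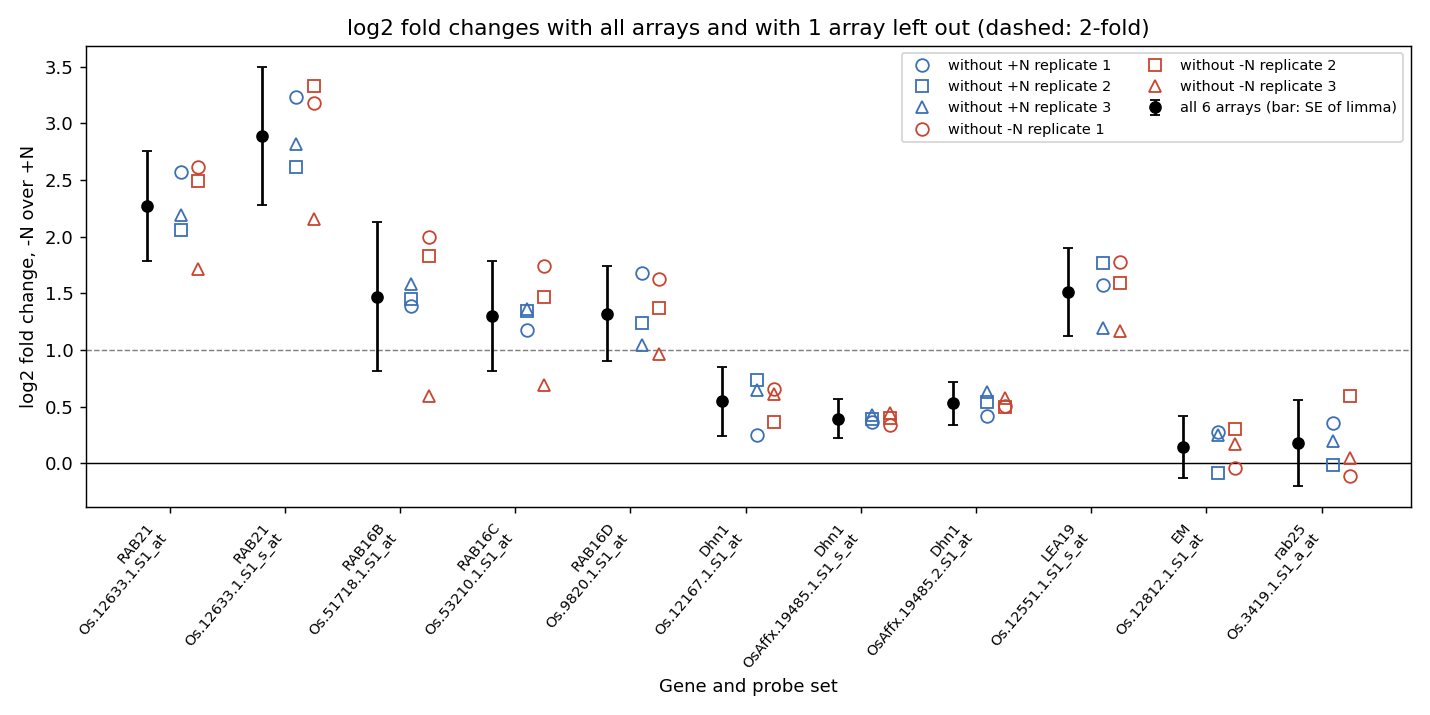
log2 ratios of −N over +N for each probe set, with all 6 arrays (black, bar: SE from limma) and with 1 array left out (open symbols, blue for +N and red for −N). The red triangles, without −N replicate 3, are the lowest value for each probe set of the RAB16 cluster and LEA19, at 0.59 to 2.15, and for Dhn1 they lie above the value with all arrays.

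**Figure D4:**
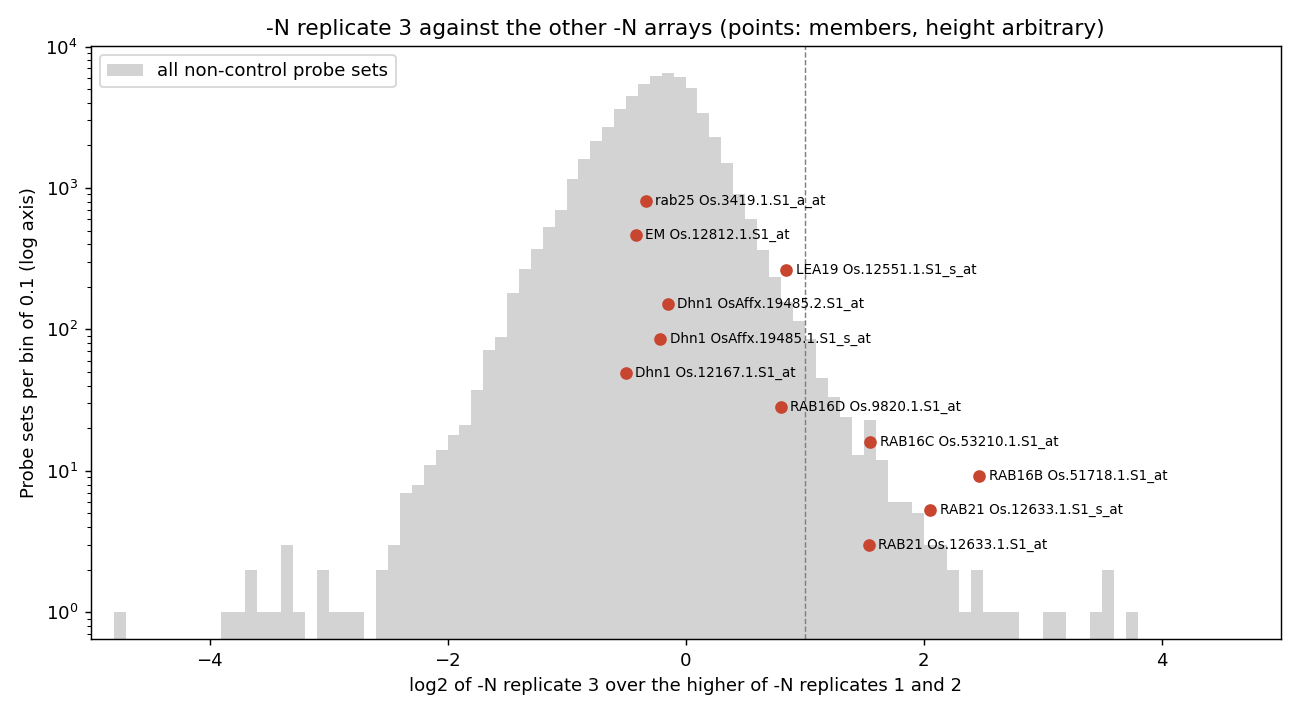
Histogram over the 57194 probe sets of the log2 ratio of −N replicate 3 to the higher of −N replicates 1 and 2 (log count axis), with the 11 member probe sets as points at arbitrary height and a dashed line at 2-fold. RAB21, RAB16B and RAB16C lie right of the line, RAB16D and LEA19 lie just left of it, and Dhn1, EM and rab25 lie below 0.

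Genes of abscisic acid signalling that could be named by symbol, 14 in all, had a median log2 ratio of 0.16 and ranged from −0.29 to 0.49. Most were SAPK kinase genes, and the rest were OsPYL11, ABF2, TRAB1 and OsVP1, so other parts of the pathway were not covered. None passed in limma, with or without the block. At an unadjusted limma p under 0.05 there was 1 higher gene and 0 lower, and 1.29% of all probe sets were higher at that p. That gene was OsSAPK1, which encodes a SnRK2-type protein kinase, with 548, 489 and 603 in +N and 710, 689.5 and 921 in −N, a log2 ratio of 0.49 ± 0.20 (SE, limma adjusted p = 1). ABF2 (also called bZIP23), a bZIP factor of the class that binds abscisic acid response elements, read 735, 1146 and 1029 in +N and 822, 1622 and 1689 in −N. Its log2 ratio was 0.46 ± 0.32 (SE, limma adjusted p = 1), with −N above +N in each pair. The next largest were OsSAPK2 with a log2 ratio of 0.35 and OsSAPK7 with 0.33, and the lowest were OsSAPK3 with −0.29, OsPYL11 with −0.26, OsSAPK4 with −0.24 and OsSAPK6 with −0.12. TRAB1, another factor of the bZIP class, had a log2 ratio of 0.31 ± 0.32 (SE, limma adjusted p = 1). OsSAPK9 followed the replicate number more than the treatment, with 98.4, 165 and 444 in +N and 94.0, 231 and 526 in −N. The only other LEA gene found by symbol, LEA17, had no probe set tied to it and was not analysed here. The paper lists LEA genes by locus among those induced by −N, and reports 1 of them as induced by ammonium nitrate supply too. The annotation used here holds no such locus identifiers, so those genes could not be matched to probe sets.

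Of 2094 named genes above the median of all probe sets, the 5 whose log2 values were most like those of Dhn1 on the _at probe set of the Os series over the 6 arrays were DI19-2, MODD, OsCASPL5B2, OsTLP11 and IAA7, with Pearson r of 0.974 to 0.980. The 5 most like RAB21 on its _at probe set, a comparison added after its values were seen, were JAZ12, CML16, ACA7, JAZ8 and CML15, with r of 0.970 to 0.983. JAZ12 read 226, 142 and 151 in +N and 309, 477 and 703 in −N, and so shared with RAB21 both the highest +N array and the highest −N array. The calmodulin-like gene CML16 read 442, 401 and 383 in +N and 738, 933 and 1414 in −N. For LEA19, likewise added, the 5 were GER7, JAZ9, OsPP2C62, HSF09 and CML16, with r of 0.939 to 0.950. Each r rests on 6 arrays that share libraries, and no p is given.

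Markers of other tissues were set beside these values. The silicon transporter genes Lsi1 and Lsi2, which mark roots, read 11842 to 16384 and 3553 to 6669, and the 4 root genes summed to 16859 to 22936 in +N and 15779 to 20028 in −N. That sum is mostly Lsi1 and Lsi2, each with a log2 ratio of −0.16. The dimmer root genes OsSHR1 and OsSCR1 went the other way, with log2 ratios of 0.20 and 0.16. The 10 seed storage protein genes measured, relevant because LEA proteins are abundant in seeds, summed to 1583 to 2002 in +N and 1589 to 2122 in −N, 1785 in −N replicate 3, and 7 of them were under the median of all probe sets. Most of that sum was GLB1, at 1021 to 1614 on the 6 arrays. The 3 green shoot genes summed to 12020 to 18316 in +N and 6054 to 10597 in −N, lower in −N without overlap. Most of that sum was 1 gene, CAB2R, which read 10785 to 14903 in +N and 5202 to 9656 in −N. OsrbcS, which encodes the small subunit of Rubisco, read 3407, 1229 and 1497 in +N and 846, 935 and 587 in −N. RBCS1 added little, at 5.10 to 6.06 on all arrays. The part of these markers in the members' values was not tested.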

How the data were processed

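Root RNA of 6 samples, 3 +N and 3 −N, was assigned to groups from sample titles. The values the authors deposited are linear intensities, 1 for each probe set of an array. GCOS and RMA are named in the submitters' processing notes, and no source used here gives their versions or roles. Intensities were taken to log2 without a pseudocount or filter, and 187 control probe sets were left out. Genes were named from the platform annotation and RefSeq synonyms (22436 probe sets with 1 symbol, 95 with several, 34850 with none), and for lists the brightest probe set of a gene was used. −N was compared with +N in R 4.3.3 with limma 3.58.1 (lmFit, then eBayes), two-sided, with Benjamini-Hochberg adjustment over 57194 probe sets, and was tested on simulated data. The precision is limited by 3 arrays per group. Replicate numbers were checked for pairing: deviations from group means of same-numbered arrays correlated at 0.785, 0.664 and 0.653, and of others at −0.547 to 0.0846, so the numbers pair the arrays. The pairing comes from the data alone. Named were all probe sets of the members, up to 4 abscisic acid signalling genes of the largest difference each way, the 5 genes closest by Pearson r, and context genes. TRAB1, OsSAPK9, OsVP1, OsrbcS, CAB2R, RBCS1, GLB1, Lsi1, Lsi2, OsSHR1 and OsSCR1 were named after their values were seen. Planned sequence features were not computed here. Alternatives were a pseudocount of 16, quantile normalization, median centring, a dim filter, the block, arrays or numbers left out, 1 probe set per gene and another variance prior. Members and lists were chosen with earlier results of these data known.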

Additional observations from a re-analysis of the deposited data

How the results depend on the processing

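No member probe set passed an adjusted p of 0.05 under any of the 16 alternatives of the fit, the replicate block included (0 of 11, median log2 fold change 1.30). Without the block no probe set was called higher, so no member had a call to lose. The lowest limma adjusted p of a member was 0.561 without the block and 0.0518 with it. Over all probe sets limma called 4 without the block and 415 with it, 3 with a pseudocount of 16, 10 after quantile normalization, 2 after median centring, 1 with a trended and robust prior, and 19 of 17905 with 1 probe set per gene. Leaving out 1 array gave 0 to 2 calls, and leaving out a replicate number gave 0. The count of member probe sets at least 2-fold higher in −N was 2 without replicate 3, 3 without −N replicate 3, and 6 without any other array or number. It was 6 under the other scalings and 5 of 8 with 1 probe set per gene. The median log2 fold change lay between 1.12 and 1.32 under these settings and with the ratio of arithmetic means, and was 0.92 without _s_at probe sets. It was 0.62 without −N replicate 3 and 0.71 without both arrays of replicate 3. EM and rab25 turned negative without +N replicate 2 (−0.084 and −0.02) and without −N replicate 1 (−0.04 and −0.11), and with 1 array left out EM lay between −0.084 and 0.31 and rab25 between −0.11 and 0.60. The filter on dim probe sets removed both. With 3 arrays per group no member, RAB21 included, passed the adjustment over all probe sets, and no detection calls were at hand. The lack of a call does not mean that the groups overlapped, since those of RAB16C, at 2.46-fold, did not.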

Other observations

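Named genes other than the members that shared the high value of −N replicate 3 were looked up after the members' values had been seen. With each gene at its brightest probe set, 87 of 17905 genes had −N replicate 3 at least 2-fold above both other −N arrays, 14 of these have a name, and 3 of the 14 were members (RAB16B, RAB16C and RAB21). The same count was 50 for −N replicate 1, 97 for −N replicate 2, and 59 to 129 for the +N arrays. Another of the 14 was OsPM19L1, which encodes a membrane protein of the AWPM-19 family. It read 12.3, 17.9 and 12.5 in +N and 27.7, 51.8 and 117 in −N, with no overlap between the groups. OsPCL1, a gene of the circadian clock, read 55.7, 115 and 522 in +N and 36.3, 100.4 and 848 in −N, so it was highest in replicate 3 of both treatments. In all, 11 of the 14 named genes were highest in replicate 3 of both treatments, RAB16B (28.4 in +N replicate 3 against 21.5 and 23.4) and RAB16C (65.3 against 50.7 and 63.95, nearly level) among them. The other 3 were RAB21, EIL1 and OsPM19L1. The 14 were selected by −N replicate 3, and deviations of the replicate 3 arrays correlated at 0.653 over all probe sets. The same share over all genes was not computed, so nothing is read from the count of 11.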
